A study of Homo sapiens with 6 samples.

Results

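The genes described here are 10 genes that drive or restrain the passage from G1 into S phase, taken from a list fixed by name: the D-type cyclins CCND1, CCND2 and CCND3, the E-type cyclins CCNE1 and CCNE2, the kinases CDK2, CDK4 and CDK6, the kinase inhibitor CDKN1B, and the transcription factor E2F1. All 10 were found by symbol among the 58721 rows of the count table, and all 10 passed the filter on low counts, CCND2 with 57 counts over the 6 libraries. RNA was sequenced from A549, an established human lung adenocarcinoma line, grown in serum-containing medium. One group of 3 libraries came from cells overexpressing KAT8 with the R98W amino acid substitution, and the other of 3 libraries from cells overexpressing wild-type KAT8. KAT8, also called MOF, is a histone H4 lysine acetyltransferase. No promoter, vector or clone is named for either overexpression, cells without overexpression were not analysed here, and the labels do not name separate cultures. The p-values therefore reflect the spread among these libraries, which may be technical. In bulk RNA, fewer cells in a cell cycle phase and less RNA per cell cannot be told apart.

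In G1, D-type cyclins bind CDK4 or CDK6 and these kinases phosphorylate RB1 and the related pocket proteins RBL1 and RBL2, which otherwise hold E2F factors in check. Free E2F factors switch on genes of S phase, among them CCNE1, CCNE2 and E2F1 itself, and cyclin E with CDK2 phosphorylates RB1 further. CDKN1B, also called p27, binds cyclin-CDK complexes and blocks CDK2. A549 cells are known to lack the CDKN2A locus, whose product p16 inhibits CDK4 and CDK6.

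Library totals ran from 101792328 to 108742650 counts in R98W and from 90007121 to 110152936 in WT. KAT8 stood at 166, 196 and 236 CPM (counts scaled to an equal library size by the TMM method) in R98W replicates 1 to 3, against 12.2, 195 and 184 CPM in WT replicates 1 to 3, so the library labelled WT replicate 1 was far below the other 5, which goes against its overexpression label. Values without that library are given beside the results for CCND1, CCND2 and CDK6 and beside the list counts. Mitochondrial ribosomal RNA took 1.47% to 1.57% of counts in R98W, against 0.905% to 1.04% in WT, and its part in the results was not tested. The 6 epithelial markers summed to 7979 to 8603 CPM in R98W and 8587 to 8776 CPM in WT, with KRT8 and KRT18 foremost, while EPCAM was low, at 3.92 CPM on average in the R98W libraries, against 7.10 CPM in the WT libraries. Of the markers of other cell types, the 4 immune genes stayed at or under 0.102 CPM in sum in every library, with CD3E at 0, and the 3 endothelial genes ran from 0.214 to 0.362 CPM in R98W and 0.392 to 0.779 CPM in WT. The 5 fibroblast genes summed to 11.7 to 13.0 CPM in R98W and 10.5 to 14.4 CPM in WT, almost all from COL1A1, with DCN at 1 count over the 6 libraries.

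CCNE1, CDK2 and E2F1 fell in R98W cells, by 0.44, 0.40 and 0.24 on the log2 scale. Among the D-type cyclins CCND3 rose slightly, by 0.21, and the differences of CCND1 and CDK6, 0.17 and 0.20, did not pass the threshold with all 6 libraries. CDK4, CCNE2 and CDKN1B differed by less than 0.03 on that scale. By edgeR's quasi-likelihood test, with p adjusted over all tested genes and a threshold of 0.05, 1 of the 10 genes was higher and 3 were lower, and 6 did not pass. Over all 20713 tested genes 34.8% passed in either direction, 16.2% as higher and 18.5% as lower, so 4 of 10 lies near the share of the whole table. Without the library labelled WT replicate 1, 3 of the 10 were higher and 3 lower, where 33.6% of all tested genes passed. R98W and WT libraries were fully apart for 5 of the 10 genes, against 45.6% of all tested genes. The median log2 fold change was 0.02 over the 10 genes and -0.0047 over all tested genes. Abundant genes passed more often: of the 9472 genes over 10 CPM, 47.3% passed, 2710 as higher and 1772 as lower.

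**Figure D1:**
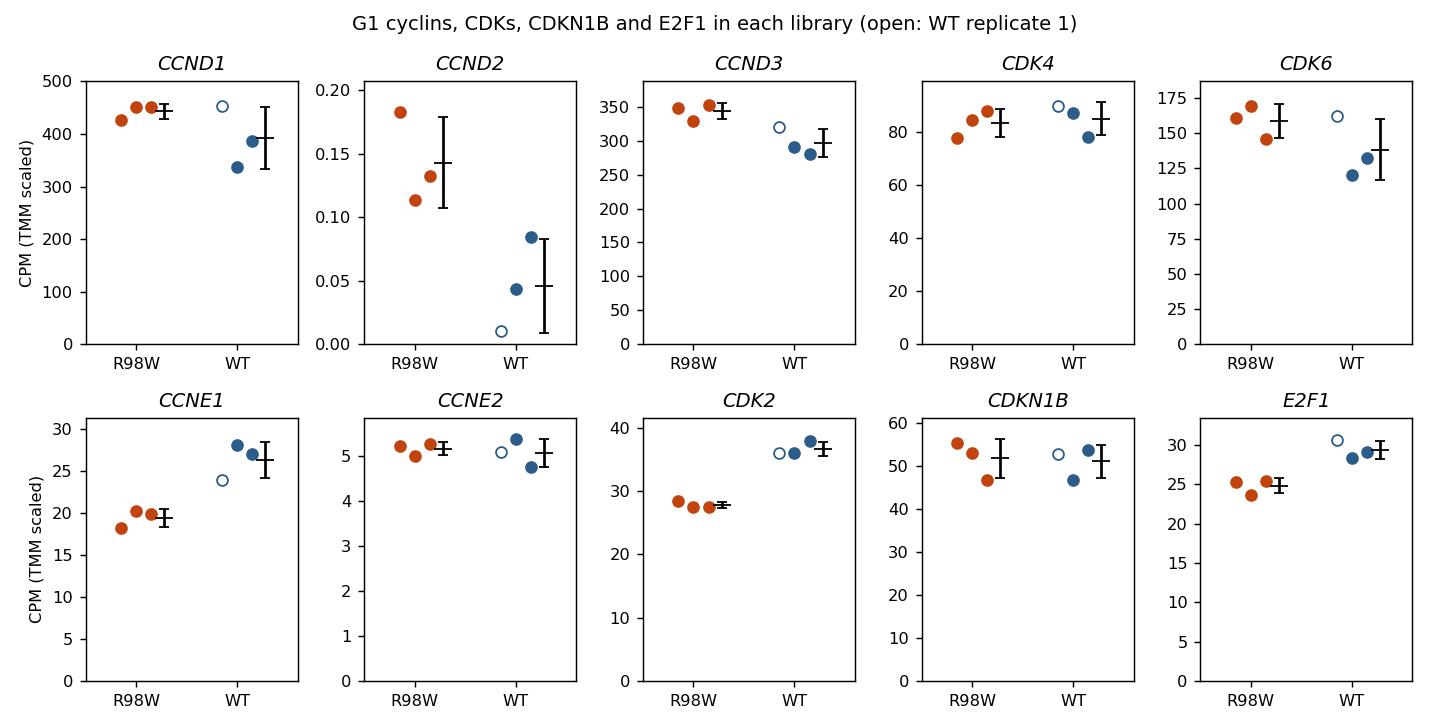
Levels of the 10 genes in CPM after TMM scaling (y axis, from 0) in each library, R98W left and WT right; points are libraries, the open point is the library labelled WT replicate 1, and the bar is mean ± SD (n = 3). CCNE1, CDK2 and E2F1 are lower in every R98W library than in any WT library, and CCND1 and CDK6 stand in WT replicate 1 at the level of the R98W libraries.

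CCND1 and CCND3 were the most abundant of the 10 genes per exon length, and CCND2 was close to absent. Levels per length are CPM divided by the kilobases of all annotated exons of a gene. On that scale CCND1 stood at 91.8 ± 2.9 in R98W and 81.3 ± 12.2 in WT (SD, n = 3), and CCND3 at 59.2 ± 2.1 in R98W and 51.2 ± 3.6 in WT. CDK4 followed with 26.4 ± 1.6 in R98W and 26.9 ± 2.0 in WT, then CDKN1B with 18.4 ± 1.6 in R98W and 18.2 ± 1.3 in WT. In R98W the order continued with CDK6 at 12.9 ± 0.97, E2F1 at 9.92 ± 0.39, CCNE1 at 7.61 ± 0.41, CDK2 at 7.14 ± 0.14 and CCNE2 at 1.18 ± 0.03, and of all these neighbours only CCNE1 and CDK2 overlapped between libraries. In WT the order below CDKN1B was E2F1 at 11.7 ± 0.47, CDK6 at 11.3 ± 1.8, CCNE1 at 10.3 ± 0.85, CDK2 at 9.43 ± 0.28 and CCNE2 at 1.16 ± 0.07. E2F1 overlapped with CDK6, CDK6 with CCNE1 and CCNE1 with CDK2, while CDK2 lay above CCNE2 without overlap. CCNE2 lay above CCND2 in both groups without overlap. The order of the D-type cyclins rests on the length used: per kilobase of the longest transcript, CCND3 stood above CCND1, at 143 against 103 in R98W and 124 against 91.2 in WT. The order below CDKN1B changed with that length too. In WT it became CDK2 at 14.1, CCNE1 at 12.9, CDK6 at 11.9 and E2F1 at 11.7. In R98W CDK2, at 10.7, moved above E2F1, at 9.92, without overlap.

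CCND1 (ENSG00000110092, chromosome 11, 69641087 to 69654474, hg38) encodes cyclin D1, the mitogen-responsive partner of CDK4 and CDK6. Its level was 427, 451 and 452 CPM in R98W replicates 1 to 3, against 454, 337 and 387 CPM in WT replicates 1 to 3. The WT library with the highest value was the one labelled replicate 1, which lay above all R98W libraries, while the other WT libraries lay below them. Its log2 fold change was 0.17 (95% interval 0.0012 to 0.35, edgeR adjusted p = 0.113), and it was 0.28 once the library labelled WT replicate 1 was left out (edgeR adjusted p = 0.00564). Without WT replicate 2 it was 0.066 (edgeR adjusted p = 0.508). CCND1 passed after the exon-length correction, at 0.22 (edgeR adjusted p = 0.0374). Correcting each library for its trend with expression level gave -0.0039 (edgeR adjusted p = 0.977). CCND1 overlaps LTO1 on the other strand, and whether the counting used strand is not given in the sources used here.

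CCND3 (ENSG00000112576, chromosome 6, 41934933 to 42050357), cyclin D3, was the only one of the 10 genes past the threshold as higher in the fit of all 6 libraries. R98W libraries held 348, 330 and 352 CPM and WT libraries 320, 291 and 281 CPM, so the groups did not overlap. CCND3 rose by 0.21 on the log2 scale (SE 0.07, edgeR adjusted p = 0.0207). The call ended without WT replicate 3 (edgeR adjusted p = 0.141), R98W replicate 1 (0.0702) or R98W replicate 3 (0.0626). With the expression-level trend removed, its log2 fold change was 0.04 (edgeR adjusted p = 0.678). Genes over 10 CPM, to which CCND3 belongs, had a median log2 fold change of 0.06. CCND2, cyclin D2, had 18, 11 and 14 counts in R98W libraries and 1, 5 and 8 counts in WT libraries, or 0.143 ± 0.036 CPM in R98W and 0.0459 ± 0.0372 CPM in WT. These counts did not overlap, and the difference did not pass (log2 fold change 1.63, SE 0.68, edgeR adjusted p = 0.0723). The CCND2 value was 1.16 without the library labelled WT replicate 1 (edgeR adjusted p = 0.261). CCND2 made up 0.0106% to 0.0173% of the per-length D-type cyclin level in R98W and 0.00094% to 0.00916% in WT.

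The kinases of the D-type cyclins showed no difference past the threshold in the fit of all 6 libraries. CDK4 (ENSG00000135446, chromosome 12, 57747727 to 57756013) had 77.8, 84.6 and 88.1 CPM in R98W libraries and 90.0, 87.1 and 78.2 CPM in WT libraries. The groups overlapped across nearly their whole range, and the 95% interval of the log2 fold change was -0.18 to 0.12 (edgeR adjusted p = 0.803). CDK4 overlaps TSPAN31 and MARCHF9 on the other strand, both of which were lower in R98W, with log2 fold changes of -0.23 and -0.90. CDK6 (ENSG00000105810, chromosome 7, 92604921 to 92836594) had 161, 169 and 146 CPM in R98W libraries and 162, 120 and 132 CPM in WT replicates 1 to 3. As with CCND1, the library labelled WT replicate 1 stood among the R98W libraries and the other WT libraries below them all. CDK6 differed by 0.20 on the log2 scale (SE 0.09, edgeR adjusted p = 0.0946), and by 0.32 without the library labelled WT replicate 1 (edgeR adjusted p = 0.00317). Without WT replicate 2 the difference was 0.097 (edgeR adjusted p = 0.397). Removing the expression-level trend gave 0.07 (edgeR adjusted p = 0.551).

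CCNE1 (ENSG00000105173, chromosome 19, 29811898 to 29824308), cyclin E1, is the partner through which CDK2 acts at the G1/S boundary. It stood at 18.2, 20.2 and 19.8 CPM in R98W libraries and 23.9, 28.1 and 27.0 CPM in WT libraries. Every R98W library lay below every WT library, and the WT value nearest to R98W came from the library labelled replicate 1. CCNE1 fell by 0.44 on the log2 scale (SE 0.08, edgeR adjusted p = 0.00043), to 19.4 ± 1.1 CPM in R98W, against 26.3 ± 2.2 CPM in WT (SD, n = 3). The call held in each of the 16 alternative fits, where the log2 fold change ran from -0.52 to -0.36. CCNE2, cyclin E2, which shares the partner CDK2, had 5.23, 5.01 and 5.27 CPM in R98W libraries and 5.09, 5.39 and 4.76 CPM in WT libraries. The groups overlapped, and the 95% interval of its log2 fold change was -0.23 to 0.27 (edgeR adjusted p = 0.902). CCNE2 overlaps INTS8 and NDUFAF6 on the other strand.

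CDK2 (ENSG00000123374, chromosome 12, 55966769 to 55972784) had the smallest p of the 10 genes. Its level was 28.46, 27.51 and 27.50 CPM in R98W libraries, against 36.07, 36.12 and 38.005 CPM in WT libraries. The libraries of each group lay close together and far from the other group. CDK2 fell by 0.40 on the log2 scale (SE 0.07, edgeR adjusted p = 0.000218), and the call held in all 16 alternative fits, between -0.42 and -0.34. CDK2 overlaps PMEL on the other strand, which averaged 0.899 CPM and was also lower in R98W (log2 fold change -2.07, edgeR adjusted p = 0.000285). CDKN1B (ENSG00000111276, chromosome 12, 12715058 to 12722371) had 55.4, 53.0 and 46.8 CPM in R98W libraries and 52.8, 46.7 and 53.6 CPM in WT libraries, so the groups overlapped. Its log2 fold change was 0.02, with a 95% interval of -0.14 to 0.18 (edgeR adjusted p = 0.871). CDKN1B is known to be set largely by protein turnover, which these data do not measure.

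E2F1 (ENSG00000101412, chromosome 20, 33675683 to 33686404), an activating E2F factor, had 25.3, 23.7 and 25.5 CPM in R98W libraries and 30.7, 28.4 and 29.1 CPM in WT libraries. All R98W libraries lay below all WT libraries. E2F1 fell by 0.24 on the log2 scale (SE 0.08, edgeR adjusted p = 0.017). The call ended without R98W replicate 2 (edgeR adjusted p = 0.0898) and held in the other 15 alternative fits, from -0.28 to -0.17 over all 16.

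The promoters of CCNE1 and E2F1 are shown because both genes fell together and both are textbook E2F targets. Each sequence gives the 250 bases before the RefSeq transcript start (GRCh38.p14), on the strand of the gene, CCNE1 at chr19:29811741-29811990 (+) and E2F1 at chr20:33686386-33686635 (-). The GENCODE gene models of both genes begin inside these windows, CCNE1 at 29811898 and E2F1, on the minus strand, at 33686404. Capitals mark matches, on either strand, to E2F-like motifs (TTTCGCGC, TTTGGCGC, TTTCCCGC or TTTGCCGC) and to the GC box GGGCGG.
CCNE1: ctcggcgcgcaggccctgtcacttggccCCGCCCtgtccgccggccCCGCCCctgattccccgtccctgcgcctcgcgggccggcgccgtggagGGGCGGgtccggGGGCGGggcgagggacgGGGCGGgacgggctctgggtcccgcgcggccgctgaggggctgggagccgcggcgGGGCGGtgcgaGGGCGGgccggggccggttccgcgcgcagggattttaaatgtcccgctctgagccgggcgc
E2F1: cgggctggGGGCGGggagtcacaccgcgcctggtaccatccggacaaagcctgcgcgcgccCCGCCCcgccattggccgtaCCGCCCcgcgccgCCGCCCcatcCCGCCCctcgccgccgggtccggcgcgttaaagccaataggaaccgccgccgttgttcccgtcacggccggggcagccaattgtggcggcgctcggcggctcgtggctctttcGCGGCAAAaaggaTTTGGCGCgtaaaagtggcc
The E2F1 window held 2 E2F-like matches and 5 GC boxes. TTTGCCGC lay on the opposite strand, with its last base 26 bases before the RefSeq start. TTTGGCGC lay on the gene's strand, ended 13 bases before the RefSeq start and ran across the GENCODE start. The CCNE1 window held 7 GC boxes and 0 of these E2F-like letters. No match overlapped another. An E2F-like match was present in 2.79% and a GC box in 42.6% of the 35116 promoter windows of this length in the RefSeq table. The windows of CCND3, CDK6, CDKN1B and CDK4, which had not fallen past the threshold, held 0 E2F-like matches and 0 to 5 GC boxes each. Windows of CCND1, CCND2, CCNE2 and CDK2 are not covered here. CCNE2, also an E2F target, did not fall, so a window that could differ from this picture is missing. The matches describe letters in these windows and say nothing of binding in A549 cells.

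**Figure D2:**
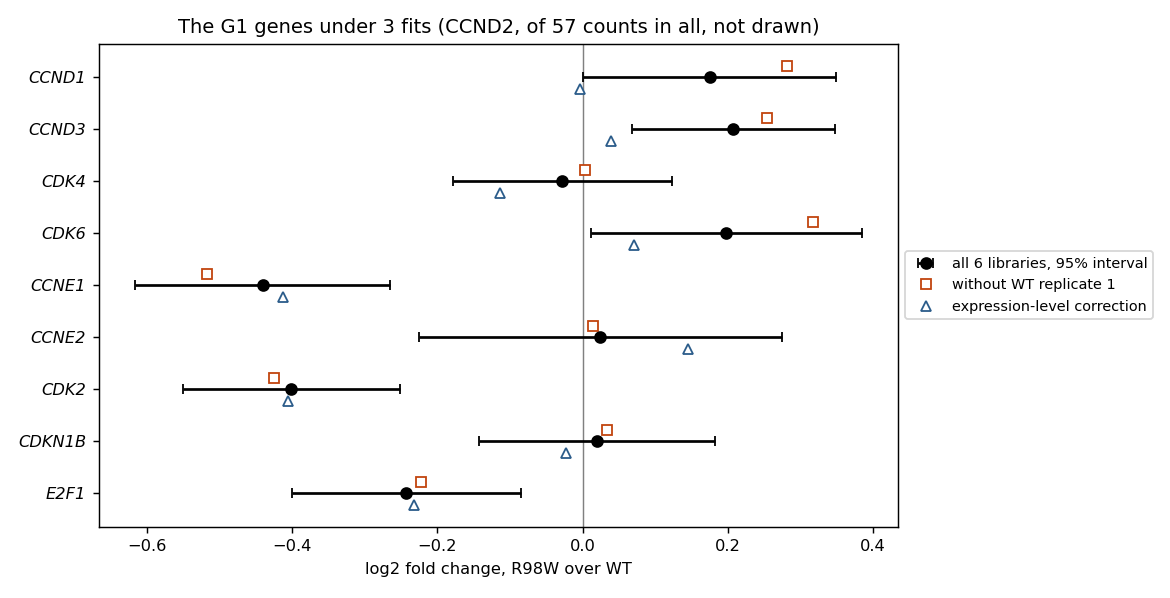
Log2 fold change of R98W over WT for 9 of the 10 genes, with the 95% interval from edgeR for all 6 libraries (filled), and the value without the library labelled WT replicate 1 (open squares) and after correction for expression level (open triangles). CCNE1, CDK2 and E2F1 stay left of 0 in all 3 fits, while CCND1, CCND3 and CDK6 lie farther right without WT replicate 1 and close to 0 after the correction.

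Ratios taken within a library do not depend on the scaling between libraries. The log2 ratio of CCNE1 to CCNE2 per exon length was 2.58, 2.80 and 2.70 in R98W libraries and 3.02, 3.17 and 3.29 in WT libraries. The groups did not overlap, and the mean difference was -0.47. CCNE1 made up 85.7%, 87.4% and 86.7% of the per-length E-type cyclin level in R98W libraries and 89.0%, 90.0% and 90.7% in WT libraries. The log2 ratio of CDK2 to CDKN1B was -1.43, -1.42 and -1.24 in R98W libraries and -1.02, -0.84 and -0.97 in WT libraries, again without overlap and with a mean difference of -0.42. The ratio of CDK4 to CDKN1B overlapped between groups, at 0.52 ± 0.21 in R98W and 0.57 ± 0.18 in WT (SD, n = 3), as did that of CCND1 to CCND3, at 0.63 ± 0.08 in R98W and 0.66 ± 0.16 in WT. The ratio of CDK4 to CDK6 was 1.03 ± 0.17 in R98W and 1.26 ± 0.20 in WT, also with overlap. By a two-sided exact permutation test the ratios of CCNE1 to CCNE2 and of CDK2 to CDKN1B each reached p = 0.1, the smallest that 3 libraries against 3 allow, and p = 0.175 adjusted over the 7 ratios computed. The ratios of CCND1 and of CCND3 to CCND2 also reached the exact p = 0.1, with the 1 to 18 counts of CCND2 in each. Their mean differences of -1.89 and -1.87 became -0.92 and -0.95 once the library labelled WT replicate 1 was left out. The exact p was 0.8 for CCND1 to CCND3, 0.3 for CDK4 to CDK6 and 0.8 for CDK4 to CDKN1B.

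**Figure D3:**
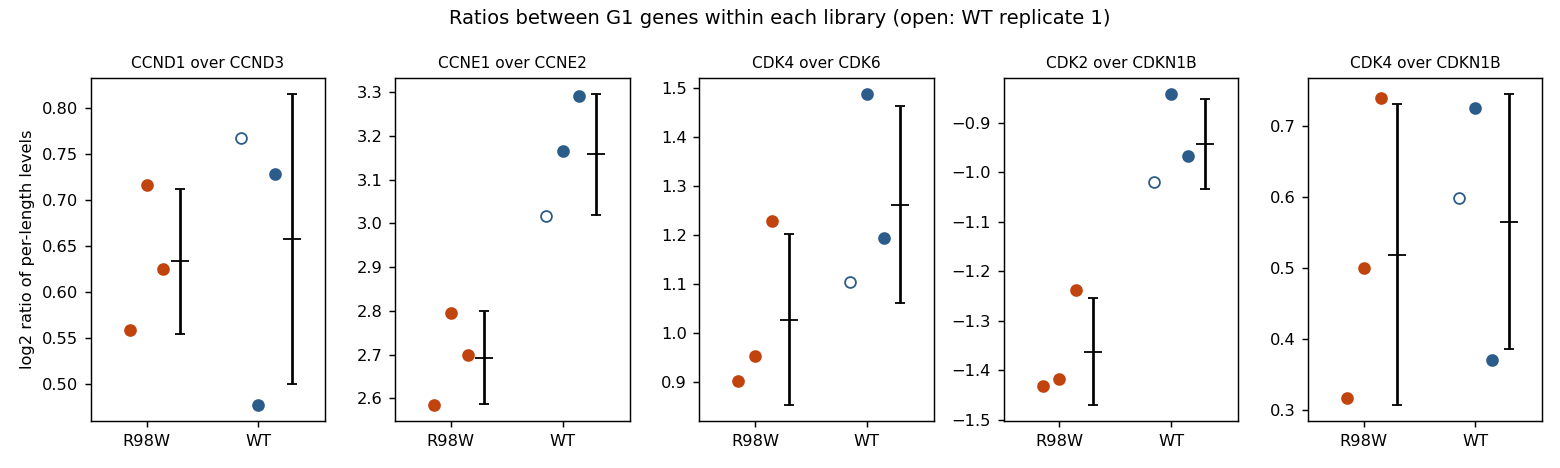
Log2 ratio of per-length levels of gene pairs (y axis, each panel with its own range) within each library, R98W left and WT right; points are libraries, the open point is the library labelled WT replicate 1, and the bar is mean ± SD (n = 3). The ratios of CCNE1 to CCNE2 and of CDK2 to CDKN1B are lower in every R98W library than in any WT library.

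Of 12 pocket protein and E2F/DP genes 2 were higher, 5 were lower and 5 did not pass, with a median log2 fold change of -0.07, and 2 and 5 again once the library labelled WT replicate 1 was left out. With all libraries kept, 58.3% of this list passed, beside 34.8% of all tested genes and 47.3% of those over 10 CPM. RB1, the retinoblastoma protein gene, had 86.9, 84.8 and 79.0 CPM in R98W libraries and 81.8, 70.9 and 82.4 CPM in WT libraries, which overlapped (log2 fold change 0.09, SE 0.07, edgeR adjusted p = 0.353). RBL1, encoding p107, had 33.68, 31.77 and 27.98 CPM in R98W libraries and 44.4, 40.7 and 45.9 CPM in WT libraries, without overlap. It fell by 0.49 (SE 0.08, edgeR adjusted p = 0.000105). RBL2, encoding p130, fell by 0.36 (edgeR adjusted p = 0.000764), to 51.0 ± 4.6 CPM in R98W, against 65.6 ± 2.9 CPM in WT. TFDP2, a DP subunit that pairs with E2F factors, fell by 0.75 (SE 0.08, edgeR adjusted p = 8.88e-07), to 30.6 ± 2.9 CPM in R98W, against 51.4 ± 3.2 CPM in WT. TFDP1, the other DP subunit of this list, was named outside the naming rule and had a log2 fold change of -0.0088 (edgeR adjusted p = 0.934). The activator E2F2 fell by 0.76 (edgeR adjusted p = 5.57e-06), with 9.39, 8.30 and 8.33 CPM in R98W libraries and 14.8, 14.4 and 14.7 CPM in WT libraries. The repressor E2F6 rose by 0.35 (edgeR adjusted p = 0.000617), to 39.9 ± 0.92 CPM in R98W, against 31.3 ± 0.67 CPM in WT. RBL2 overlaps AKTIP, and RB1 overlaps LPAR6 and RCBTB2, on the other strand.

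**Figure D4:**
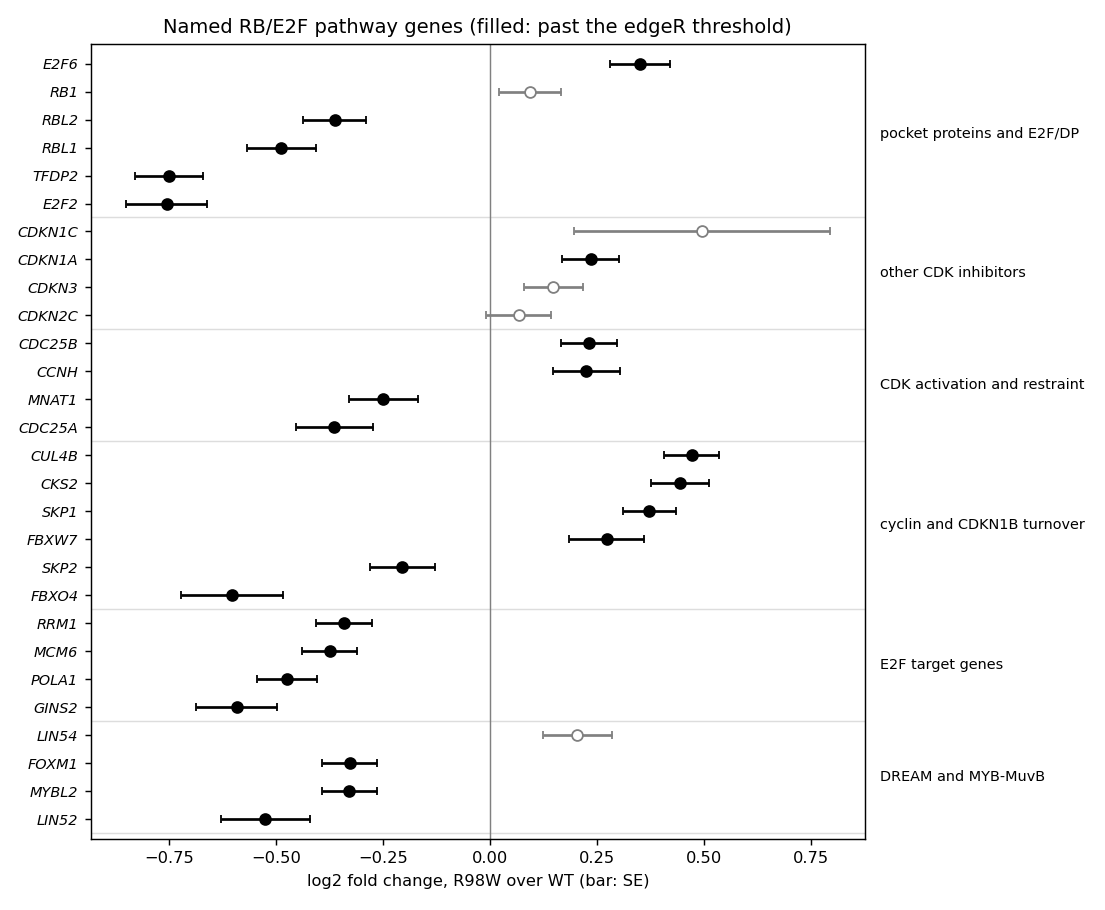
Log2 fold change of R98W over WT, with its SE, for named genes of 6 pathway lists; filled points passed the edgeR threshold. RBL1, RBL2, TFDP2 and E2F2 lie left of 0, E2F6 lies right of 0, and RB1 lies near it.

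Of 22 E2F target genes, 3 were higher and 9 lower, with a median log2 fold change of -0.12, and 2 were higher and 8 lower without the library labelled WT replicate 1. The share past the threshold with all libraries was 54.5%, beside 34.8% of all tested genes and 47.3% of those over 10 CPM. POLA1, the catalytic subunit of DNA polymerase alpha, fell by 0.47 (SE 0.07, edgeR adjusted p = 3.2e-05), to 50.9 ± 2.8 CPM in R98W, against 70.8 ± 3.8 CPM in WT. GINS2, of the replicative helicase, fell by 0.59, the helicase subunit gene MCM6 by 0.37 and RRM1, the large subunit of ribonucleotide reductase, by 0.34. The higher genes, named after their values were seen, were PCNA, SLBP and CHEK1, with log2 fold changes of 0.18, 0.18 and 0.23. Among 9 DREAM and MYB-MuvB genes, 0 were higher and 3 lower by edgeR, with 1 higher at an unadjusted p under 0.05, 1 by DESeq2 and 0 by limma-voom. The median log2 fold change was -0.00066, and 33.3% of this list passed by edgeR. Without the library labelled WT replicate 1 the edgeR counts were again 0 higher and 3 lower. LIN52, MYBL2 and FOXM1 fell by 0.53, 0.33 and 0.33. FOXM1 and MYBL2 drive transcription of later cell cycle genes. LIN54, the DNA-binding subunit, had 0.20 (edgeR adjusted p = 0.0566). Of these genes, POLA1, GINS2, FOXM1 and LIN54 overlap other genes on the opposite strand.

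Of the 7 other CDK inhibitors, 5 were tested, with a median log2 fold change of 0.15, and by edgeR 1 was higher and 0 were lower. DESeq2 and limma-voom also called 0 lower, and 0 at an unadjusted p under 0.05. Passing by edgeR was 20% of the tested inhibitors, beside 34.8% of all tested genes and 47.3% of those over 10 CPM. Without the library labelled WT replicate 1 the edgeR counts were again 1 higher and 0 lower, with a median of 0.11. CDKN1A, encoding p21, rose by 0.23 (SE 0.07, edgeR adjusted p = 0.00901), with 295, 288 and 309 CPM in R98W libraries and 271, 246 and 241 CPM in WT libraries. That call ended without WT replicate 3 (edgeR adjusted p = 0.0738) and with the expression-level trend removed (0.398, log2 fold change 0.07). CDKN2A and CDKN2B, which encode p16 and p15, had 0 counts in all 6 libraries, which allows levels of up to 0.0276 to 0.0295 CPM in R98W and 0.0272 to 0.0333 CPM in WT. CDKN3, CDKN1C and CDKN2C did not pass, with log2 fold changes of 0.15, 0.49 and 0.07. Of 10 genes of CDK activation and restraint 3 were higher and 2 lower (50% of the list, median log2 fold change 0.04), and 1 and 2 without the library labelled WT replicate 1. CDC25A, the phosphatase that activates CDK2, fell by 0.36 (edgeR adjusted p = 0.00407), to 13.1 ± 0.87 CPM in R98W, against 16.8 ± 1.2 CPM in WT. CDC25B rose by 0.23, a call that ended with the expression-level trend removed (edgeR adjusted p = 0.49) and without WT replicate 3 (0.0722). Within the CDK-activating kinase, CCNH had a log2 fold change of 0.23 and MNAT1 of -0.25. The CCNH call ended without the library labelled WT replicate 1 (edgeR adjusted p = 0.126), WT replicate 3 (0.0687) or R98W replicate 1 or 2 (0.0885 and 0.149), and after a correction for GC content (0.247). The MNAT1 call ended without WT replicate 3, R98W replicate 2 or R98W replicate 3 (0.0824, 0.0836 and 0.0717). CCNH overlaps RASA1 and CDC25A overlaps NDUFB1P1 on the other strand.

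Genes of cyclin and CDKN1B turnover numbered 19, of which 7 were higher and 5 lower, or 6 and 4 without the library labelled WT replicate 1, with a median log2 fold change of 0.09. With all libraries kept, 63.2% of these genes passed, beside 34.8% of all tested genes and 47.3% of those over 10 CPM. The ubiquitin ligase gene CUL4B rose by 0.47 (SE 0.06, edgeR adjusted p = 1.48e-05), to 203 ± 7.5 CPM in R98W, against 146 ± 5.9 CPM in WT. CKS2 rose by 0.44, and SKP1, the adaptor that joins F-box proteins to the SCF ligase, by 0.37. FBXW7, the F-box protein that marks cyclin E for destruction, rose by 0.27 (edgeR adjusted p = 0.0217), with 18.0 ± 0.27 CPM in R98W and 14.9 ± 1.3 CPM in WT. That call ended without WT replicate 2 (0.122), R98W replicate 1 (0.0687) or R98W replicate 2 (0.0588). FBXO4, an F-box protein linked to cyclin D1, fell by 0.60 (edgeR adjusted p = 0.000624). SKP2, the F-box protein that marks CDKN1B for destruction, had a log2 fold change of -0.20 (edgeR adjusted p = 0.0426) and passed in 6 of 16 alternative fits. Its call ended without each of 5 libraries in turn, with edgeR adjusted p of 0.0572 without the library labelled WT replicate 1, 0.0942 without WT replicate 3, and 0.0849, 0.0677 and 0.158 without R98W replicates 1, 2 and 3. SKP1 overlaps TCF7 on the other strand.

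Cyclins and CDKs outside G1 control were set beside the 10 genes. Of 18 tested other cyclins 8 were higher and 0 lower, or 6 and 0 without the library labelled WT replicate 1, with a median log2 fold change of 0.17. The number lower at an unadjusted p under 0.05 was 1, and DESeq2 and limma-voom called 0 lower. By edgeR 44.4% of these cyclins passed, beside 34.8% of all tested genes and 47.3% of the 9472 over 10 CPM. Of those 9472 genes 2710 were higher and 1772 lower. Without the library labelled WT replicate 1, 33.3% of these cyclins and 33.6% of all tested genes passed. CCNG1, a cyclin of the p53 response, rose by 0.63, the elongation factor cyclins CCNT2 and CCNT1 by 0.51 and 0.30, and the splicing-linked CCNL1 by 0.38. Of 16 tested other CDKs 2 were higher and 4 lower (37.5% of the list), or 3 and 4 without the library labelled WT replicate 1, with a median log2 fold change of -0.00023. CDK18 fell by 2.12 (SE 0.19, edgeR adjusted p = 1.22e-07), with 1.07, 1.55 and 0.824 CPM in R98W libraries and 4.54, 4.88 and 5.53 CPM in WT libraries. CDK20 fell by 0.84, CDK11B by 0.48 and CDK5 by 0.44. CDK11B has a near-identical copy, CDK11A, so how reads divide between them is uncertain, and CDK5 overlaps SLC4A2 and CCNT2 overlaps CCNT2-AS1 on the other strand. CCNB1 and CDK1 of mitosis, named after their values were seen, had log2 fold changes of 0.003 and 0.012. These picked genes do not describe mitosis genes as a set.

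**Figure D5:**
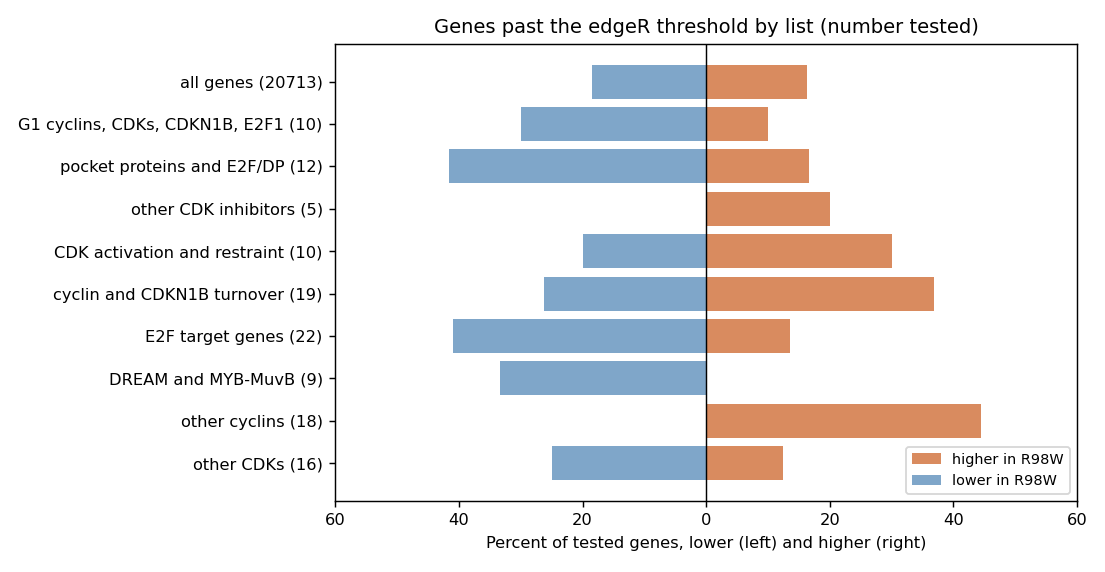
Percent of the tested genes of each list past the edgeR threshold as lower (left) and higher (right) in R98W, with the number tested in brackets. Lower genes outnumber higher ones among the 10 genes and in the pocket protein and E2F/DP, E2F target, DREAM and MYB-MuvB, and other CDK lists. The other cyclins have higher genes and none lower. Over all genes 16.2% were higher and 18.5% lower. Of the 9472 genes over 10 CPM, 2710 were higher and 1772 lower.

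Of 9044 protein-coding genes averaging 10 CPM or more, the 5 whose log2 CPM followed CDK2 most closely over the 6 libraries were RFC1, FUT8, CGREF1, SUSD2 and LRFN3. Their Pearson r with CDK2 ran from 0.997 to 0.999, a description over 6 points in 2 groups that share their library totals. Since CDK2 separates the groups, genes chosen for following it had to be lower in R98W too, and their log2 fold changes are given as a description: -0.50 for RFC1, -0.38 for FUT8, -0.31 for CGREF1, -0.65 for SUSD2 and -0.56 for LRFN3. RFC1 encodes the large subunit of the clamp loader that places PCNA on DNA.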

How the data were processed

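Polyadenylated RNA of 6 A549 libraries was sequenced, and groups and replicate numbers come from the sample titles. The deposited table holds the authors' raw counts per gene, not normalised. CASAVA 1.8, HISAT2 2.1.0, HTSeq 0.11.3 and hg38 are named in the submitters' processing notes, without roles. Annotation, strand setting and read filters were not given in the sources used here. Symbols, positions and exon lengths came from GENCODE 29, which matched 58676 of 58721 rows.

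Counts were filtered by filterByExpr (minimum count 10, minimum total 15), scaled by TMM and tested with edgeR 4.0.16 (quasi-likelihood, R 4.3.3) over all genes, with Benjamini-Hochberg adjustment and a threshold of 0.05. SE comes from the test statistic. The biological coefficient of variation was 10.0%. Alternatives used DESeq2 1.42.0, limma 3.58.1, other scalings, filters and thresholds, each library left out, a replicate block, and per-library loess corrections for expression level, exon length and GC content. Limits at 0 counts take 3 counts and cover counting error only. The pipeline was tested on simulated data. The 10 genes, the lists and the tests were chosen with earlier results of these data known. List genes were named by the 4 smallest p per list, plus RB1, RBL1, RBL2, CDKN1A, CDKN2A, CDKN2B, SKP2 and FBXW7 whatever their p. TFDP1, PCNA, SLBP, CHEK1, CCNB1 and CDK1 were named outside this rule. The 5 genes most like the gene with the smallest p were also named.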

Additional observations from a re-analysis of the deposited data

How the results depend on the processing

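The fall of CCNE1 and CDK2 passed in all 16 alternative fits and that of E2F1 in 15. Of 159 values for the 10 genes under these fits, 136 kept their direction and side of the threshold, 5 lost the call, 8 gained it and 10 changed sign, all 10 in genes that had not passed. The number of higher genes among the 10, 1 with all libraries, was 2 without a filter, 2 with limma-voom, 3 after the exon-length correction, 0 at a threshold of 0.01, and 0 to 3 with 1 library left out. The number of lower genes stayed at 2 or 3. Higher genes of the 8 pathway lists numbered 26, against 16 after the expression-level correction, 14 at a threshold of 0.01 and 14 to 21 with 1 library left out, 14 without WT replicate 3 and 15 without R98W replicate 1 or 2. The list counts were rerun as a choice made after seeing the data. Higher genes over the whole table numbered 3364, and 2143 at a threshold of 0.01. With 1 library left out they ran from 2340 to 3268. The cause of these shifts was not tested.

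Sign changes were -0.0039 for CCND1 and -0.023 for CDKN1B after the expression-level correction, -0.064 for CCNE2 and 0.052 for CDK4 after the GC correction, and 0.013 for CDK4 after the exon-length correction. With 1 library left out, log2 fold changes ran from 0.066 to 0.28 for CCND1, from 1.16 to 2.32 for CCND2, from 0.097 to 0.32 for CDK6, from -0.029 to 0.060 for CCNE2, from -0.094 to 0.023 for CDK4 and from -0.050 to 0.090 for CDKN1B. The differences in the within-library ratios ran from -0.11 to 0.030 for CCND1 to CCND3, from -0.33 to -0.12 for CDK4 to CDK6 and from -0.16 to 0.055 for CDK4 to CDKN1B. CCND2 passed with limma-voom (adjusted p = 0.0432) and after the expression-level correction (edgeR adjusted p = 0.0414), CCND1 after the exon-length correction, and CDK6 without a filter and after the exon-length correction.

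Same-numbered libraries did not deviate together, with correlations of 0.0056, -0.04 and -0.04, and not every library correlated best with its own number. With the replicate block 2 of the 10 genes were higher, as CDK6 passed at an edgeR adjusted p of 0.0481, and 3205 genes were higher and 3678 lower in all. The few counts of CCND2 limit its precision.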
